A study of Homo sapiens with 6 samples.

Results

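Desmosome genes were followed in AC16 cells treated with doxorubicin. The 10 genes are the desmosomal cadherins DSC1, DSC2, DSC3, DSG2 and DSG3, the armadillo-repeat genes JUP, PKP1, PKP2 and PKP3, and the plakin gene DSP. They were taken by symbol from a fixed list, and all 10 were found among the 58299 genes of the count table. The members were chosen by their counts in these same libraries, with the doxorubicin against DMSO values already known, so that contrast is given for them as a description and supports nothing. AC16 is a human line made by fusing adult ventricular cells with virally transformed fibroblasts. It was cultured for 48 h with 0.1% DMSO as the vehicle or with 100 nM doxorubicin, an anthracycline that poisons type II topoisomerases. Poly(A) RNA of 3 libraries per group was sequenced without strand information. Separate cultures for the 3 libraries of each treatment are not stated in the sources used here, so p-values measure the spread between these samples only, which may be technical.

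A desmosome is a spot-like junction that ties the intermediate filaments of neighbouring cells together. Desmocollins and desmogleins are its calcium-dependent cadherins, which meet those of the next cell in the gap between the membranes. Inside the cell, plakoglobin (JUP) and the plakophilins bind the cadherin tails, and desmoplakin (DSP) links that plaque to desmin in heart muscle or to keratins in epithelia. DSC2, DSG2 and PKP2 are the forms typical of the heart, where inherited defects in them, in JUP or in DSP cause arrhythmogenic cardiomyopathy. DSC1, DSC3, DSG1, DSG3 and PKP1 are typical of stratified epithelia such as the epidermis.

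Short stretches of the members' start regions are shown first, because several members that lie on different chromosomes were higher in the same libraries. RefSeq start regions (GRCh38.p14) matched 8 of the 10 members, with 10 start regions in all. PKP2 and PKP3 did not match. In the 250 bases before each start, both strands were searched for the p53 half-site decamer (RRRCWWGYYY), AP-1 (TGANTCA) and an E-box (CACCTG). In the half-site, R is A or G, W is A or T and Y is C or T. They were also searched for a Grainyhead-like motif (AACNNGTT), the GC box (GGGCGG) and a TATA box (TATAAA). Each line below is 30 bases on the gene's own strand, 5′ to 3′, and the capitals mark a match to the p53 decamer in DSC3 and DSG3, to the GC box in JUP and PKP1, and to the E-box, read on the other strand, in DSP.
DSC3: gctcccgggcAGGCAAGCCTgagagaggcc
DSG3: agtgtagtccGGACTAGCTTttgcacttcc
JUP: cgtctcccccagGGGCGGagcttcgaggtg
PKP1: tatcctgtctgacggaGGGCGGgcctcgcc
DSP: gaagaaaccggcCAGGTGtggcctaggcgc
These stretches lie at chr18:31042780-31042809 (minus strand), chr18:31447513-31447542 (plus), chr17:41786763-41786792 (minus), chr1:201283476-201283505 (plus) and chr6:7541574-7541603 (plus). The matches in DSC3, PKP1 and DSP fall inside the first exon of the gene model used for counting, which starts upstream of the RefSeq start.

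The p53 half-site decamer was found in 2 of the 10 member start regions, those of DSC3 (-57 to -48) and DSG3 (-218 to -209). It was found in 5.57% of 35116 start regions of all genes. The E-box, which also is the core of sites read by SNAI and ZEB repressors, was found in 4 member regions (DSC2, DSG2, DSP and JUP) and in 17.5% of all. GC boxes were found in 6 member regions, against 42.6% of all. In DSP, 2 of the GC boxes, at -239 to -234 and -234 to -229, share a base. The AP-1, Grainyhead-like and TATA motifs were found in 0 member regions, against 6.57%, 3.00% and 10.7% of all. A match describes letters in this window only. The stretches shown above are a selection and leave out other matches. Among those left out are the GC boxes of DSP, the E-boxes of JUP and all matches of DSC2 and DSG2.

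Library totals ranged from 17252862 to 19571731 counts. Any pair of libraries of a group differed by more than sampling noise (chi-square per degree of freedom 2.82 to 9.39), so each counted as 1 replicate. Doxorubicin replicate 1 lay farther out on the first principal component (72.7) than replicates 2 and 3 (62.8 and 61.4), and values without it are given where they matter. The cell type was checked against marker lists. Of 10 cardiomyocyte markers, among them TNNT2, MYH6, MYH7 and NKX2-5, 0 passed the expression filter, and their summed level in CPM, a count scaled by the size of its library, was 0 to 0.221 in DMSO and 1.06 to 1.88 CPM in doxorubicin. All 8 fibroblast markers passed, with a summed level of 22620 to 24990 CPM in DMSO and 12940 to 16560 CPM in doxorubicin. Of these markers 5 were lower after doxorubicin and 3 were not called. Most of the fall of the sum came from COL1A1, with means of 9864 CPM in DMSO and 3156 CPM in doxorubicin. FN1, also abundant, had 8741 and 9449 CPM. In bulk RNA, a change in the number of cells of a type and a change in RNA per cell cannot be told apart.

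Among the members, DSC3, JUP, PKP1 and DSP were higher after doxorubicin, PKP3 was lower and PKP2 was not called. The other 4 members, DSC1, DSC2, DSG2 and DSG3, had too few counts to pass the filter. Calls come from edgeR's quasi-likelihood test over all 15358 genes that passed, at an adjusted p under 0.05 (Benjamini-Hochberg). Of those genes 64.7% were called, 32.7% higher and 32.0% lower. DSC3, without counts in DMSO, passed only through its doxorubicin libraries and so had to differ. The members were chosen with this contrast known, so the 4 higher and 1 lower of 6 carry no weight as a count. The groups did not overlap for 5 of the 6, with doxorubicin above for 4, against 69.1% and 34.8% of tested genes. The same 4 were called higher at 4-fold or more, against 6.21% of tested genes. With no filter, 7 members were higher and 2 lower, where 32.4% of 34828 genes were called and 17.5% were higher.

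The desmocollins had no counts at all in DMSO. DSC3 (chr18:30990008-31042815, GRCh38), the desmocollin of basal epithelial layers, had 0 counts in each DMSO library and 234, 163 and 156 counts in doxorubicin replicates 1 to 3. On the CPM scale with TMM library scaling these are 13.3, 8.60 and 8.73, a mean of 10.2 ± 2.67 (SD, n = 3). Every doxorubicin library was above every DMSO library, and replicate 1 was the highest of its group. Taking 3 counts over all DMSO libraries (0.0543 CPM) as the most that the zeros allow, DSC3 was at least 187-fold higher. This bound, and those given below for other genes, take the doxorubicin counts as exact and leave out their counting error. No exon of another gene overlaps its exons.

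DSC1 and DSC2, on the same strand beside DSC3, stayed at the edge of detection. DSC1 (chr18:31129236-31162856), a desmocollin of upper epidermal layers, had 4, 3 and 0 counts in doxorubicin and 0 in DMSO. With the doxorubicin counts taken as exact, that is at least 2.37-fold higher over the group. The groups overlapped, since doxorubicin replicate 3 also had 0 counts. Without doxorubicin replicate 1 the 3 counts of DSC1 are at the floor and give no fold. DSC2 (chr18:31058840-31102415), the desmocollin of the heart and of simple epithelia, had 1, 1 and 0 counts in doxorubicin and 0 in DMSO. A change of DSC2 was not detectable at this depth. Per length of exon, DSC3 made up 97.0%, 96.7% and 100% of the desmocollin level in the 3 doxorubicin libraries (97.9 ± 1.81%).

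Desmogleins, the second class of cadherin, were detected at a few counts. DSG3 (chr18:31447795-31478702), the desmoglein of basal epidermis, had 0 counts in each DMSO library and 9, 5 and 16 in doxorubicin, at least 10.1-fold higher. DSG2 (chr18:31498043-31549008), the most widely expressed desmoglein and the heart's own, had 0, 1 and 0 counts in DMSO and 16, 5 and 3 in doxorubicin. Its ratio was 24.3, with a 95% counting interval of 3.97 to 1001 that covers counting error only. Replicate 1 held 16 of the 24 doxorubicin counts, and without it the ratio was 12.0 (1.61 to 532). Without DMSO replicate 2, which holds the only DMSO count, DSG2 was at least 5.29-fold higher. Both genes were above DMSO in every doxorubicin library, but the order of the libraries was not shared, since DSG2 was highest in replicate 1 and DSG3 in replicate 3. Accordingly DSG2 made up 51.7%, 38.6% and 14.3% of the summed desmoglein level per length, and DSG3 made up 32.6%, 43.2% and 85.7%. DSG1 and DSG4, the desmogleins outside the list, had 5 counts and 1 count in all doxorubicin libraries together.

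The cadherin side was therefore uneven in the doxorubicin libraries. DSC3 stood at 6.63, 11.03 and 6.54 times the summed level of DSG1 to DSG4 per length of exon. Desmocollins made up 88.6 ± 2.87% of the desmosomal cadherin level (n = 3). These ratios and shares rest on few desmoglein counts, and their counting error is not included.

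**Figure D1:**
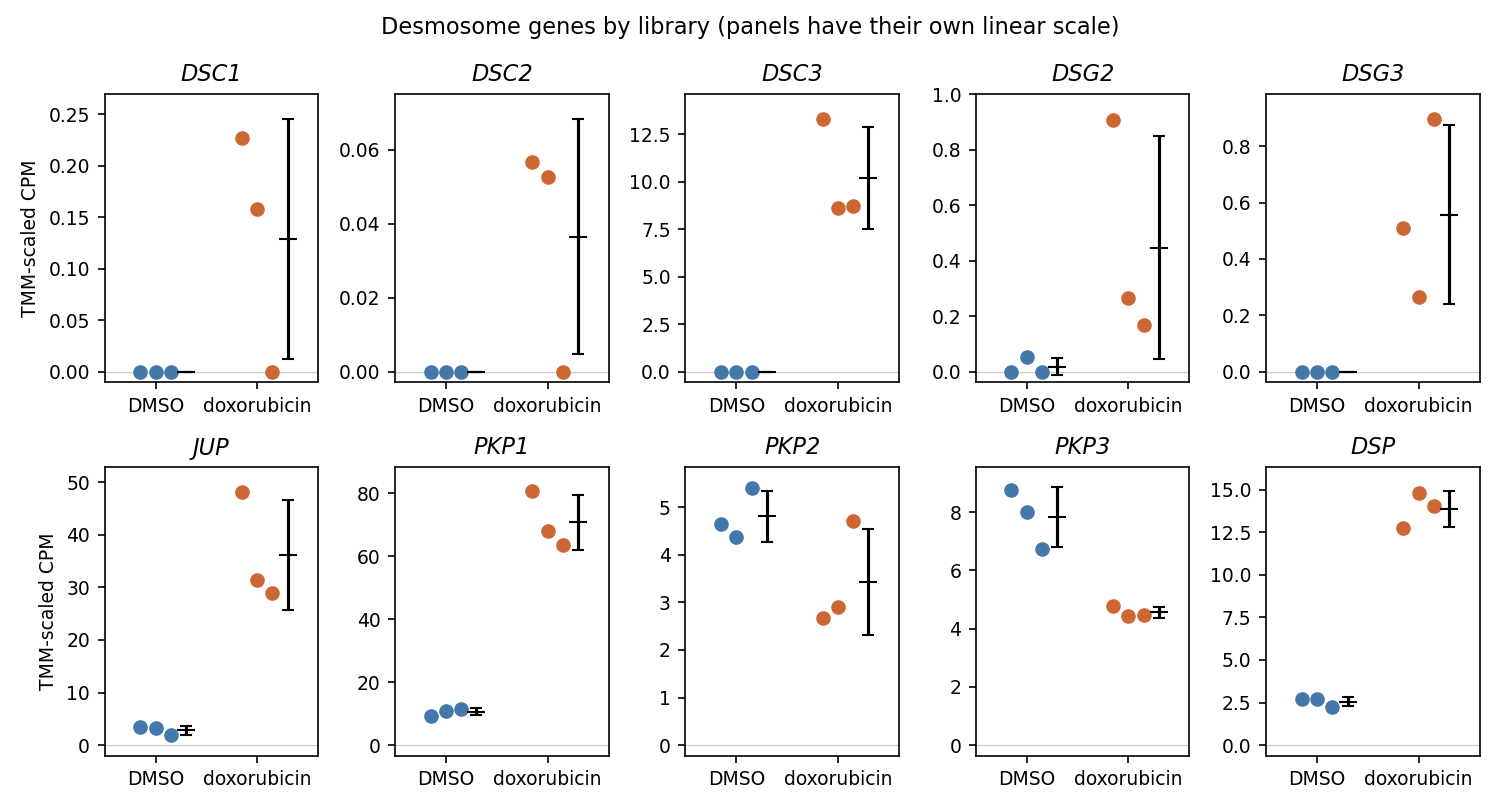
Level of each of the 10 desmosome genes in TMM-scaled CPM, with 1 point per library (3 DMSO, 3 doxorubicin) and the mean ± SD beside the points. Each panel has its own linear axis. DSC3, JUP, PKP1 and DSP have all doxorubicin points above all DMSO points, and so do DSG2 and DSG3 at a few counts. PKP3 has them below, and for PKP2 doxorubicin replicate 3 (4.70 CPM) lies among the DMSO libraries.

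JUP (chr17:41754604-41786931) encodes plakoglobin, which binds cadherin tails in desmosomes and in adherens junctions. It had 3.35, 3.23 and 1.88 CPM in DMSO and 48.1, 31.3 and 28.9 CPM in doxorubicin. The groups were far apart, with DMSO replicate 3 the lowest and doxorubicin replicate 1 the highest. The mean rose from 2.82 ± 0.818 to 36.1 ± 10.4 CPM, 12.8-fold (log2 fold change 3.67 ± 0.29, approximate SE), and was 3.41 on the log2 scale without doxorubicin replicate 1. JUP held place 354 among the 15358 tested genes ordered from the highest log2 fold change.

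PKP1 (chr1:201283452-201332993), the plakophilin of stratified epithelia, was the most abundant member in doxorubicin. It had 9.39, 10.99 and 11.5 CPM in DMSO and 80.6, 68.1 and 63.7 CPM in doxorubicin. The 3 doxorubicin libraries were all at least 5 times the highest DMSO library. The mean went from 10.6 ± 1.10 to 70.8 ± 8.79 CPM, 6.67-fold higher (log2 fold change 2.73 ± 0.11).

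The other plakophilins did not follow PKP1. PKP3 (chr11:392614-404908), found in most epithelia, had 8.77, 8.02 and 6.74 CPM in DMSO and 4.77, 4.43 and 4.48 CPM in doxorubicin. The groups did not overlap, and the mean was 1.72-fold lower after doxorubicin, at 4.56 ± 0.185 against 7.84 ± 1.03 CPM (log2 fold change -0.78 ± 0.15). PKP2 (chr12:32790745-32896840), the plakophilin of the heart, had 4.64, 4.37 and 5.41 CPM in DMSO and 2.67, 2.90 and 4.70 CPM in doxorubicin. Its groups overlapped through doxorubicin replicate 3, and it was not called (log2 fold change -0.49 ± 0.21). Without that library the fold change was -0.77 and PKP2 was called lower.

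The makeup of the plakophilins thus differed between the groups. Per length of exon, PKP1 made up 33.7%, 39.2% and 42.1% of the PKP1 to PKP3 level in DMSO and 88.8%, 87.4% and 84.7% in doxorubicin. The share of PKP3 was 46.4 ± 5.61% in DMSO and 9.24 ± 0.579% in doxorubicin. PKP2 held 15.3 ± 1.93% in DMSO and 3.80 ± 1.53% in doxorubicin (n = 3 each). None of these shares overlapped between the groups. A share falls when another member rises, so the lower PKP2 share says nothing of the PKP2 level itself.

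DSP (chr6:7541575-7586717) encodes desmoplakin, the anchor of intermediate filaments. It had 2.68, 2.71 and 2.26 CPM in DMSO and 12.7, 14.8 and 14.0 CPM in doxorubicin. The groups were apart, and here doxorubicin replicate 1 was the lowest of its group. The mean rose from 2.55 ± 0.249 to 13.9 ± 1.06 CPM, 5.43-fold (log2 fold change 2.44 ± 0.15).

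Levels of different genes were compared on a per-length scale, in TMM-scaled CPM per kilobase of exon. In DMSO the order was PKP3 (2.07), PKP1 (1.71), PKP2 (0.683), JUP (0.571) and DSP (0.253), and the ranges of PKP3 and PKP1, and of PKP2 and JUP, overlapped. In doxorubicin it was PKP1 (11.4), JUP (7.31), DSC3 (1.45), DSP (1.37), PKP3 (1.20) and PKP2 (0.486), followed by DSG3 (0.101), DSG2 (0.0722), DSC1 (0.0301) and DSC2 (0.00295). Ranges overlapped between DSC3 and DSP and among the last 4 neighbours in that order. Against all tested genes, PKP1 lay above 34.0% in DMSO and 72.3% in doxorubicin, and JUP above 18.6% and 62.1%. DSC3 and DSP lay above 29.2% and 28.1% in doxorubicin, so both stayed in the lower part of the range.

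**Figure D2:**
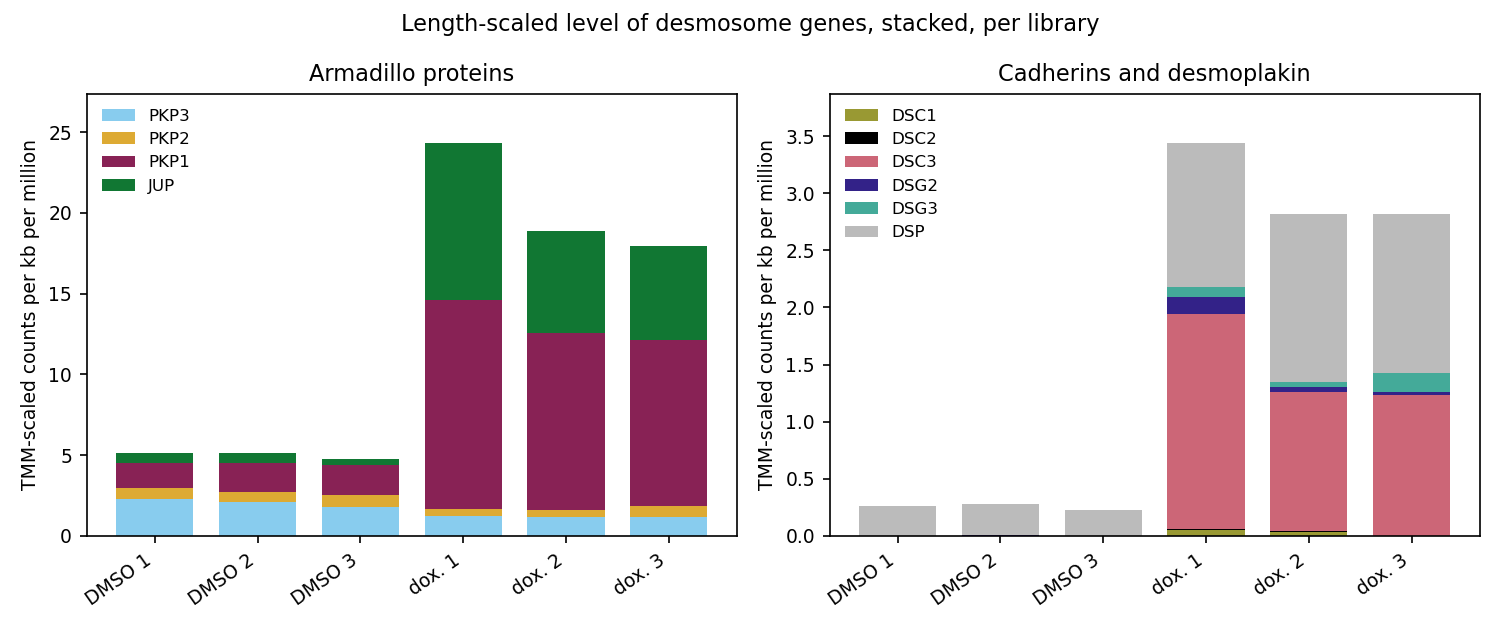
Length-scaled level (TMM-scaled CPM per kilobase of exon) stacked by gene for each of the 6 libraries, armadillo genes on the left and cadherins with desmoplakin on the right. Summed plakophilins average 4.46 in DMSO and 13.1 in doxorubicin, and JUP and PKP1 fill most of the doxorubicin bars. On the right, the DMSO bars hold DSP almost alone, while DSC3 and DSP fill most of the doxorubicin bars.

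The 7 desmosomal cadherin genes lie side by side on chromosome 18 over 559 kb, in the order DSC3, DSC2, DSC1, DSG1, DSG4, DSG3 and DSG2. The gap between DSC3 and DSC2 is 16.0 kb, and the gap between the desmocollins and the desmogleins is 155 kb. Within this cluster 1 of 7 genes, DSC3 at one end, passed the expression filter. Of 45 other genes within 1 Mb on either side, 17 had any count and 3 passed. GAREM1, an adaptor of growth factor receptors, rose from 1.06 ± 0.398 to 2.66 ± 0.677 CPM (log2 fold change 1.31, edgeR adjusted p = 0.0012). TRAPPC8, of a vesicle tethering complex, had 47.0 ± 5.07 and 43.9 ± 3.04 CPM, and the ubiquitin ligase gene RNF138 had 29.4 ± 0.757 and 26.7 ± 0.982 CPM. Neither was called (adjusted p = 0.33 and 0.15). The other neighbours with counts did not pass. The pseudogene HNRNPA1P7 had 13, 16 and 7 counts in DMSO and 0, 0 and 8 in doxorubicin. B4GALT6 had 1 count in DMSO and 8 in doxorubicin, RNF125 had 0 and 11, PGDP1 had 4 and 3, and WBP11P1 had 3 and 0. SLC25A52 had 1 count in each group and MEP1B had 0 and 2, and 7 genes without a symbol had 0 to 21 counts in DMSO and 0 to 30 in doxorubicin. Some of these neighbours had more counts in DMSO and others in doxorubicin.

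**Figure D3:**
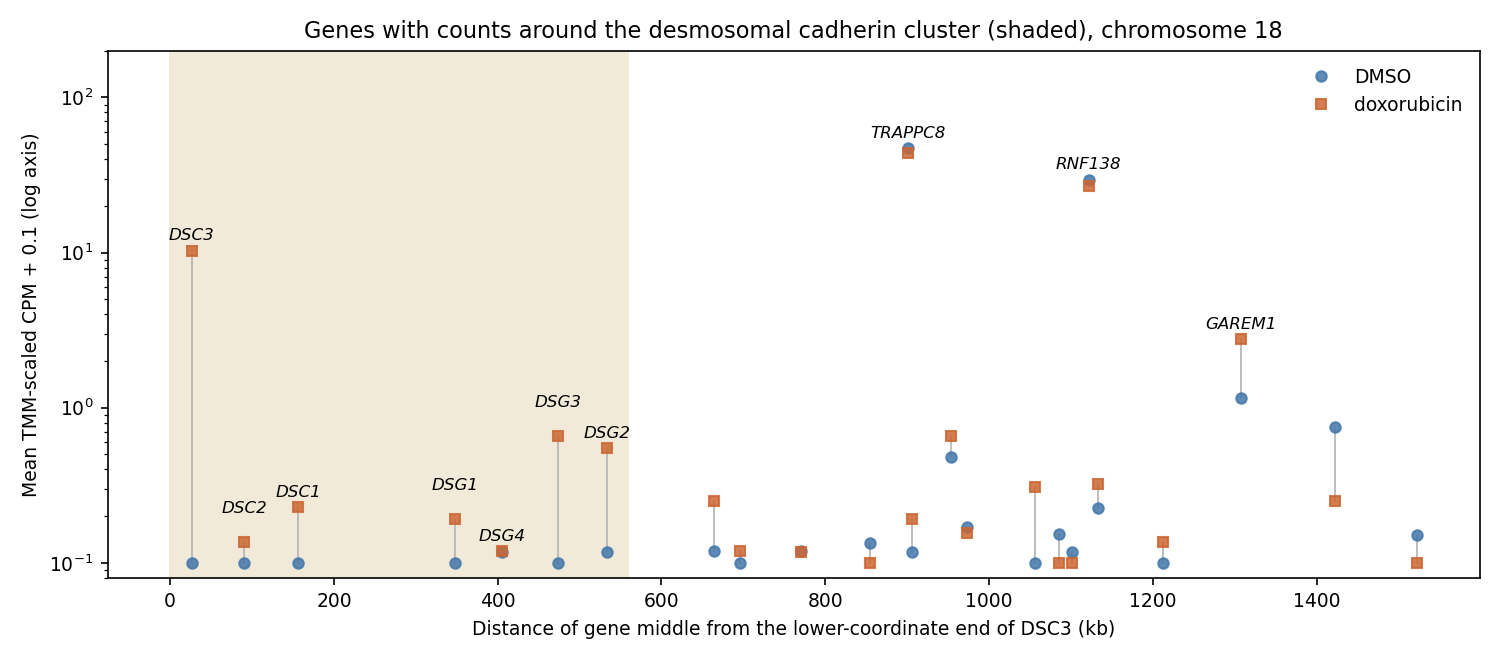
Mean TMM-scaled CPM plus 0.1 on a log axis for the genes with any count within 1 Mb of the desmosomal cadherin cluster, against the distance of the gene's middle from the lower-coordinate end of DSC3 in kb. Circles are DMSO means and squares doxorubicin means (n = 3), joined for each gene, and the cluster is shaded. DSC3 is the only gene inside the shaded 559 kb with a doxorubicin mean above 1 CPM, and TRAPPC8 and RNF138 outside it have nearly coinciding means.

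Each member's profile over the 6 libraries was compared with 12962 other tested protein-coding genes, by the root-mean-square difference of log2 CPM. The nearest profile to DSC3 was that of POU3F1 (0.0593), which also had 0 CPM in DMSO and a mean of 10.2 CPM in doxorubicin. For JUP it was EDA2R (0.367), and for PKP1 it was ARVCF (0.185), itself an armadillo gene of the cadherin tail. The nearest to DSP was SLC13A3 (0.137), to PKP3 it was RBM47 (0.0859) and to PKP2 it was ARTN (0.166). The distance for JUP was the largest of these 6, so its nearest gene is only loosely alike.

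Genes around the members were taken from 9 lists of junction and partner genes, 101 genes in all. Of 74 that passed the filter, 37 were higher, 23 lower and 14 not called. That is 81.1% called, against 64.7% of all tested genes, and their median log2 fold change was 0.32 against -0.0013. The lists were chosen with earlier results of these data known, so this difference is a description and supports nothing. The share called ranged by list from 61.5% (tight junctions) to 100% (other desmosome genes, gap junctions and hemidesmosomes). Counts of calls by list, and those of the marker lists, stand beside 32.7% higher and 32.0% lower of all tested genes. By list, the median was 0.56 for other desmosome genes, 0.92 for intermediate filaments, 0.13 for adherens, 0.07 for tight and 1.12 for gap junctions, and 0.79 for hemidesmosomes. It was 1.61 for epithelial transcription factors, -0.65 for repressors of epithelial genes and 0.08 for assembly and shedding genes. The medians for other desmosome genes, gap junctions and epithelial transcription factors rest on 4 tested genes each. Of the 4 gap junction genes 2 rose and 2 fell, so their median describes no common direction.

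Of the 8 desmosome genes outside the members, 4 passed, of which 3 rose and 1 fell. PERP, a tetraspan membrane protein of desmosomes and a known p53 target, had 45.9, 54.5 and 51.2 CPM in DMSO and 221, 182 and 195 CPM in doxorubicin. It rose 3.94-fold (log2 fold change 1.98 ± 0.08, edgeR adjusted p = 8.8e-12), with no overlap between the groups. PPL, the plakin periplakin, rose 1.73-fold from 1.70 ± 0.458 to 2.95 ± 0.402 CPM (adjusted p = 0.0097), but was not called without DMSO replicate 3 (0.0509) or by DESeq2 (0.0520). KAZN, which encodes the periplakin partner kazrin, rose 1.26-fold from 34.0 ± 2.32 to 43.0 ± 3.51 CPM. In KAZN 24.9% of exon bases are shared with other genes, chiefly TMEM51-AS1, which had 4 counts in all. PKP4, an armadillo gene related to the plakophilins, fell 1.73-fold from 139 ± 10.2 to 80.7 ± 6.67 CPM (adjusted p = 1.3e-07). DSG1, DSG4, EVPL and CDSN did not pass, with 5, 2, 13 and 9 counts in all 6 libraries.

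Intermediate filament genes, the partners of desmoplakin, moved in both directions. Of 9 that passed, 6 rose, 2 fell and 1 was not called. KRT7, a keratin of simple epithelia, rose 9.95-fold from 10.4 ± 1.86 to 103.7 ± 6.62 CPM, and KRT14, a keratin of basal epidermis, rose 7.50-fold (log2 fold change 2.91 ± 0.30). DMSO replicate 3 (2.76 CPM against 0.894 and 1.20) was the highest KRT14 value of its group, and without it the log2 fold change was 3.52. SYNM, synemin, rose 3.62-fold from 18.8 ± 0.582 to 68.3 ± 2.80 CPM. In SYNM 27.7% of exon bases are shared with other genes, chiefly SYNM-AS2, with 5 counts. DES, the muscle filament desmin (log2 fold change -1.74), and VIM, vimentin (-0.61), fell. KRT5, the usual partner of KRT14, had 0 counts in DMSO and 4 in doxorubicin.

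The adherens junction list moved in both directions. Of 14 genes that passed, 7 rose and 4 fell. CDH3, P-cadherin of basal epithelia, had 1.84, 1.04 and 1.16 CPM in DMSO and 25.5, 22.2 and 21.4 CPM in doxorubicin, 17.1-fold higher (edgeR adjusted p = 7.2e-12). CDH2, N-cadherin of heart and fibroblasts, fell 1.69-fold from 250.3 ± 27.3 to 148 ± 32.6 CPM (adjusted p = 0.011). CTNNB1, beta-catenin and the close relative of plakoglobin, was not called (log2 fold change -0.04, adjusted p = 0.61).

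Tight junction genes split evenly, with 4 of 13 higher, 4 lower and 5 not called. CLDN1 rose 7.14-fold from 1.13 ± 0.479 to 8.07 ± 0.887 CPM, F11R rose 2.90-fold, and OCLN, occludin, fell 3.24-fold, from 13.4, 9.17 and 10.5 CPM in DMSO to 2.56, 4.38 and 3.25 CPM in doxorubicin. In F11R 36.6% of exon bases are shared with other genes, and the gene with the largest overlap had 4 counts. Of 4 gap junction genes that passed, GJB5, a connexin of epidermis, had 2 counts in DMSO and 388 in doxorubicin. Its ratio was 197, and counting error alone spans 54.1 to 1631. GJD3 also rose, but other genes cover 82.8% of its exon bases, mostly the opposite-strand GJD3-AS1 with 1932 counts against 241. The connexins of heart muscle GJC1 and GJA1 fell (log2 fold change -0.86 and -0.65).

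Hemidesmosomes anchor keratins to the basement membrane. All 9 of their genes passed, of which 6 rose and 3 fell. COL17A1, a transmembrane collagen, rose 22.5-fold from 0.524 ± 0.116 to 11.8 ± 4.19 CPM and was highest in doxorubicin replicate 1 (16.6 CPM against 9.02 and 9.68). ITGA6, the alpha-6 integrin, rose 3.82-fold and LAMB3, a laminin-332 chain, rose 2.72-fold. ITGB4, the integrin that pairs with ITGA6 in hemidesmosomes, fell (log2 fold change -0.55, edgeR adjusted p = 0.023).

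Of 11 epithelial transcription factors, 4 passed, 3 rose and GRHL1 was not called. GRHL3, a Grainyhead-like factor of the epidermis, rose 20.5-fold from 0.202 ± 0.120 to 4.14 ± 0.648 CPM. KLF4 rose 6.27-fold, and KLF5 rose by 0.58 on the log2 scale. TP63, which encodes the p63 regulator of stratified epithelia, did not pass the filter and had 0, 0 and 1 counts in DMSO and 16, 17 and 8 in doxorubicin. Of 6 repressors of epithelial genes, ZEB2 (log2 fold change -1.29), TWIST2 (-1.02), TWIST1 (-0.70) and ZEB1 (-0.60) fell, SNAI2 rose (0.66) and SNAI1 was not called.

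Among 11 measured genes for assembly and shedding of desmosomes, 5 rose, 3 fell and 3 were not called. PRKCA, a kinase linked to desmosome disassembly, fell 2.48-fold from 225.5 ± 5.28 to 90.9 ± 13.3 CPM (edgeR adjusted p = 9.6e-09). PRKCD rose 2.77-fold and PRKCE 2.31-fold. ADAM9 and ADAM10, membrane proteases, fell (log2 fold change -0.76 and -0.23), and ADAM17 was not called (-0.06).

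Markers of epidermal keratinocytes, in which DSC3, DSG3 and PKP1 are typical, were set beside these results. Of 10 markers, 4 passed and 3 rose. SFN, stratifin, rose most (log2 fold change 5.08), followed by KRT14 (2.91) and S100A2 (0.48), while KRT10 was not called. The differentiation markers IVL and LORICRIN had 0 counts in all 6 libraries, and KRT1 had 1 count in each group. The summed level was 44.7 to 52.6 CPM in DMSO and 67.5 to 77.7 CPM in doxorubicin. Most of the DMSO sum was KRT10, with means of 42.3 CPM in DMSO and 37.7 CPM in doxorubicin. The rise of the sum came mostly from SFN, with means of 0.505 and 17.4 CPM, and from KRT14. It therefore describes these genes and not a shift of the whole marker list. Of 5 measured endothelial markers, PECAM1 was higher and TEK lower, with sums of 15.1 to 17.0 and 10.3 to 12.2 CPM. Of 2 measured immune markers, 0 were called by edgeR and 0 had an unadjusted p under 0.05, with sums of 1.96 to 2.60 and 2.85 to 3.47 CPM. The part of these cell types in the desmosome values was not tested.

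**Figure D4:**
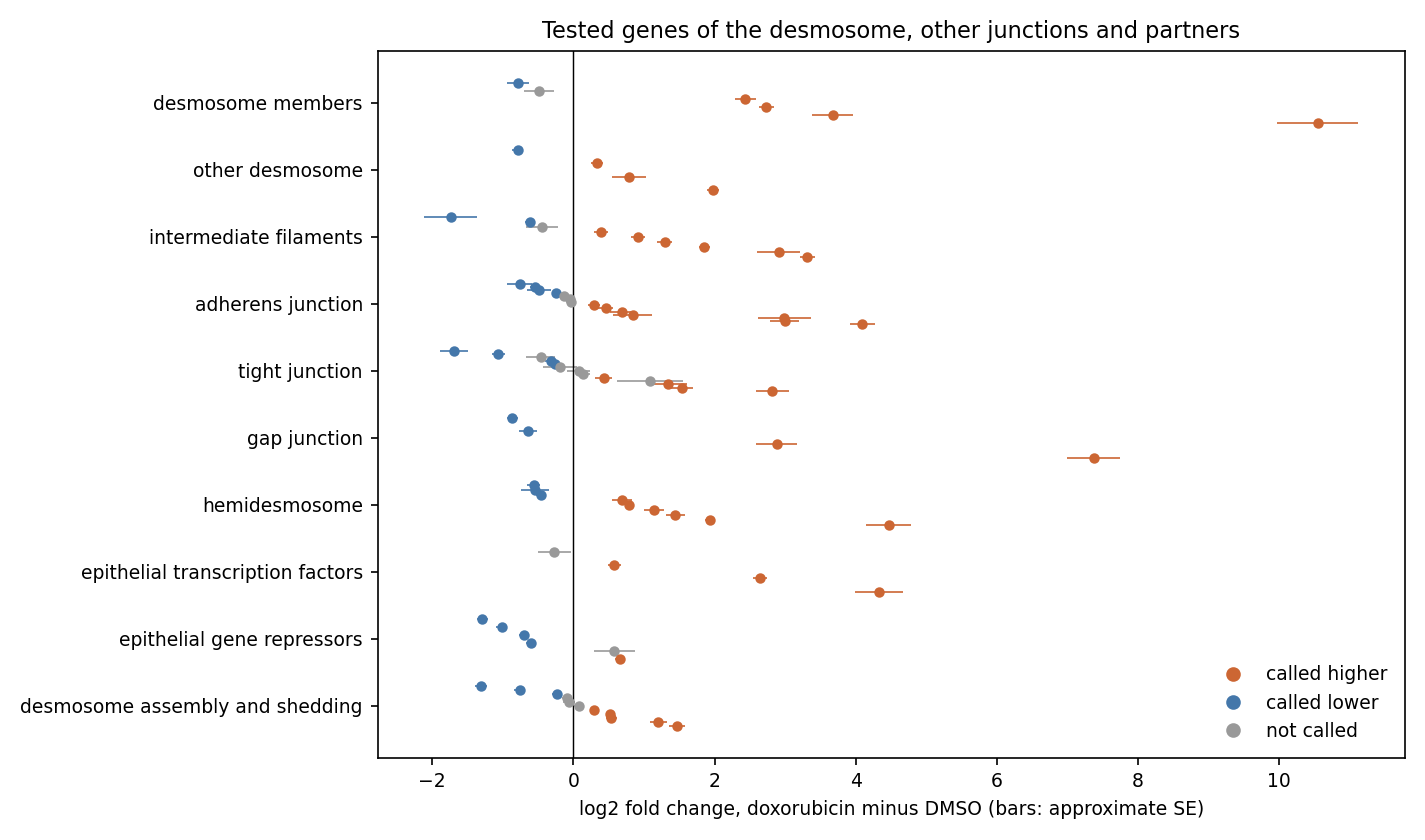
Log2 fold change, doxorubicin minus DMSO, with its approximate SE, for each tested gene of the members and of the 9 lists, coloured by edgeR call. The 6 tested members reach from -0.78 (PKP3) to DSC3 at the far right, whose fitted value has no DMSO counts behind it and depends on the prior count. All 9 hemidesmosome genes are coloured, and 4 of the 6 repressors of epithelial genes lie on the lower side.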

How the data were processed

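Values are the authors' unnormalized gene counts in the layout of featureCounts, per the file headers. STAR, SAMtools, Subread, featureCounts and GRCh38 (hg38) are named in the submitters' processing notes. Versions, counting settings and the handling of overlapping genes are not given in the sources used here. Libraries were unstranded, so overlapping genes on opposite strands cannot be told apart. A name table gave symbols for 57717 of 58299 IDs, and GENCODE 29 held 58179. Columns of other samples numbered 0. Exon lengths are those of the deposited table.

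The test was edgeR's (4.0.16, under R 4.3.3, filterByExpr with minimum count 10 and minimum total 15, TMM, robust quasi-likelihood F test, two-sided, no covariates). The approximate SE is log2 fold change over the root of F. DESeq2 1.42.0 was an alternative. The procedure was tested on simulated data with few of 15088 genes changed. There it recovered 67.3% of 49 genes changed 1.5-fold and 96% of 50 changed 4-fold. In the real data 64.7% of genes were called, so the simulation does not cover scaling under so wide a change. Members and lists were chosen with earlier results of these data known. Named were all members, all desmosome genes outside them, up to 3 called genes a list that changed most, at mean log2 CPM 1 or above, genes with counts in the chromosome 18 window (those without a symbol only summarised), and each member's nearest profile. Other genes were named after their values were seen. A result that the rule would name is not reported here. Alternatives were scaling, filters, a replicate block, each library left out, the 50 most abundant genes left out, a 2-fold threshold, share of counts and other windows. Leaving libraries out of folds made from few counts was added after seeing the data.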

Additional observations from a re-analysis of the deposited data

How the results depend on the processing

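JUP, PKP1 and DSP kept their direction and call under all 15 alternatives, and their log2 fold changes ranged from 3.41 to 3.82, 2.63 to 2.82 and 2.36 to 2.50. For DSC3, with no DMSO counts, the fitted value depends on the prior count, and its call says nothing of stability. Its lower bound was 159-fold to 202-fold with a doxorubicin library left out, an alternative added after seeing the data. With no filter, 7 members were higher (DSC1, DSG2 and DSG3 in addition) and 2 lower. DESeq2 called 6 members higher and 1 lower, where 5008 genes in all were higher and 4474 lower. The median log2 fold change of the 23352 genes in that fit was 0.404, so they leaned towards higher as a whole. Tested against a 2-fold change with glmTreat, DSC3, JUP, PKP1 and DSP stayed higher and 0 members were lower. In that test 1464 genes in all were higher and 430 lower, and 18 junction and partner genes were higher and 3 lower. Leaving out each library in turn gave 4 higher members and 1 to 2 lower, 4703 to 5005 genes higher and 4519 to 4824 lower, and 37 to 39 partner genes higher and 21 to 23 lower. PKP2 was called lower with no filter (log2 fold change -0.52), without doxorubicin replicate 3 (-0.77) and with the replicate block (-0.51). In the window on chromosome 18, 1 neighbour was higher and 0 to 1 lower with libraries left out, the latter being the pseudogene HNRNPA1P7, tested only without DMSO replicate 3 or doxorubicin replicate 3. In a window of 250 kb, 0 neighbours were higher, since 0 were tested there.

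Replicate numbers were shared between the groups, but same-numbered libraries did not deviate together (r = 0.0515, -0.0231 and 0.0270), and not every library correlated best with its own number. With the replicate block, 2 members were lower and 5003 genes in all were higher. Of 630 values for 42 named genes, 611 kept direction and call, 16 lost the call, 3 gained it and 0 reversed. The share of DSC3 among desmocollins was 96.9% to 98.5% over its alternatives. At this depth a DMSO group at 0 (DSC1, DSC2, DSC3 and DSG3) allows up to 0.0543 CPM.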
